A study of Mus musculus with 412 samples.

Results

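Among mouse colonic sensory neurons from lumbosacral (LS) dorsal root ganglia (DRG), 73 neurons expressed Gfra3, the receptor for the GDNF family ligand artemin. They were split by a limit on their level of Ntm. Neurons were taken with at least 9500 genes above 0 and at least 10 TPM of Gfra3, where TPM is the level of a transcript per length, scaled to the same total in each neuron. Of them, 34 had at least 10 TPM of Ntm, which encodes the adhesion protein neurotrimin, and are called Ntm neurons here. Another 37 had less than 10 TPM of Ntm and at least 10 TPM of Trpa1, an irritant-gated cation channel, and are called low-Ntm neurons. The remaining 2 had little of either and were left out. The 71 neurons compared stood among 140 LS neurons with enough genes, 158 LS neurons in the deposited table and 325 neurons in all.

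The neurons came from C57BL/6J mice in which the tracer Fast Blue had been injected into the colon wall, so that DRG cell bodies projecting to the colon could be seen and picked by hand after dissociation. LS ganglia (L5 to S2) supply the colon through the pelvic nerve, and thoracolumbar (TL) ganglia (T10 to L1) through the splanchnic nerves. Each library was 1 neuron made by Smart-seq2, which amplifies full-length cDNA of polyadenylated RNA without molecular identifiers. The age of the mice and the mouse behind each neuron are not given in the sources used here, the ganglia of each segment were dissociated into a culture of their own, and no treatment separates the sets. LS neurons are therefore treated as 1 sample, no p-value is given, and the spread shown is that between neurons.

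Gfra3 pairs with the receptor tyrosine kinase RET and marks peptidergic nociceptors, the unmyelinated afferents that release neuropeptides such as CGRP and substance P. Neurotrimin belongs to the IgLON family of GPI-anchored adhesion proteins of neurons. The channel TRPA1 opens on contact with reactive irritants and is a known transducer of inflammatory pain from the gut. The study named a pelvic peptidergic subtype pPEP, for which it used Ntm as a marker, and a mixed peptidergic subtype mPEPb, for which it used Trpa1.

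The values that chose the neurons are a description and not a result. Ntm, on chromosome 9 (28994750 to 29963141, GRCm38), had a median of 30.0 TPM in the Ntm neurons, from 10.8 to 65.3 TPM. In the low-Ntm neurons it was at 0 in 20 of 37 and at most 8.46 TPM, so that the limit of 10 TPM ran between 8.46 and 10.8 TPM. Of the Ntm neurons, 7 lay under 20 TPM, and of the low-Ntm neurons 10 lay at 1 TPM or more. For Gfra3 the limit lay between 4.31 TPM in the highest LS neuron under it and 36.4 TPM in a neuron left out for low Ntm and low Trpa1. The lowest neuron compared had 166 TPM of Gfra3. The median of Gfra3 was 1330 TPM in the Ntm and 1565 TPM in the low-Ntm neurons. Trpa1 had a median of 361 TPM in the low-Ntm neurons, whose lowest value was 14.2 TPM, while the nearest neuron left out had 6.25 TPM. The gene minimum lay between 9312 genes in the nearest Gfra3 neuron left out and 10183 in the lowest member.

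Trpa1 did not enter the choice of the Ntm neurons, and it varied widely among them. It was at 0 in 15 of the 34, at 10 TPM or more in 16 (47.1%, exact Clopper-Pearson 95% interval 29.8% to 64.9%) and at 100 TPM or more in 7, with a highest value of 423 TPM. Among the low-Ntm neurons 27 of 37 had at least 100 TPM of Trpa1. Decorin (Dcn) separated the plane of Ntm and Trpa1 more nearly along the Ntm axis, with 100 TPM or more in 33 of the 34 Ntm neurons, including all but 1 of those with Trpa1, and in 6 of the 37 low-Ntm neurons. Of these 6, 3 had 1 to 10 TPM of Ntm and so lay close to the limit.

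**Figure D1:**
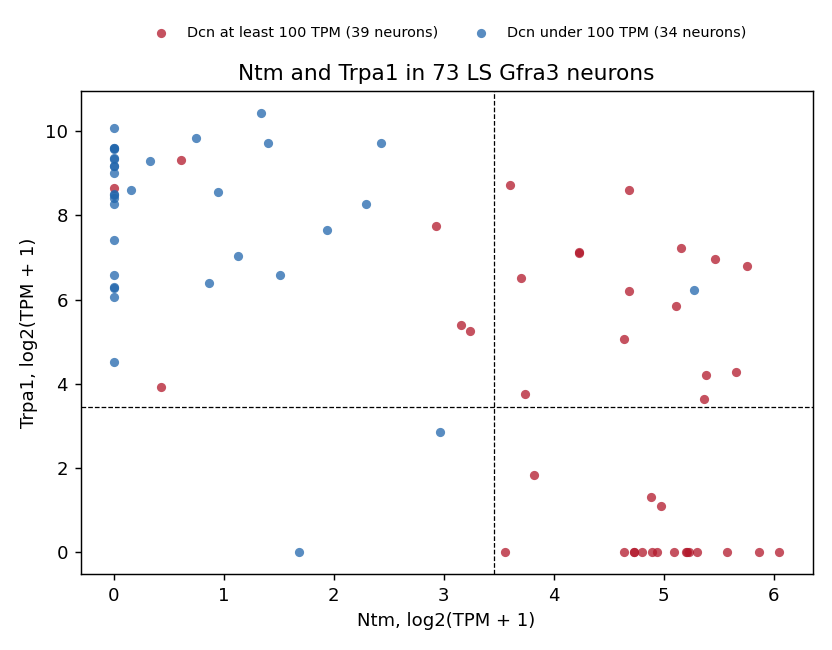
Ntm (x axis) and Trpa1 (y axis), both as log2(TPM + 1), in each of the 73 LS Gfra3 neurons, with dashed lines at 10 TPM and red points for neurons with at least 100 TPM of Dcn. The red points span the Trpa1 axis on the right, where 16 of 34 Ntm neurons had at least 10 TPM of Trpa1, and 6 of them lie among the 37 low-Ntm neurons at the upper left.

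Both sets were DRG neurons by their markers. The summed level of 10 DRG neuron genes, such as Tubb3 and Prph, had a median of 14171 TPM in the Ntm and 16786 TPM in the low-Ntm neurons. For 12 genes of satellite glia and Schwann cells, the cells that wrap DRG neurons, the medians were 261 TPM (141 to 7885) and 234 TPM (63.7 to 6889), and the defining glial genes Sox10, Kcnj10, Cdh19 and Erbb3 had a median of 0 in both. Over 10 macrophage genes the medians were 78.9 and 66.6 TPM, nearly all from C1qb. Reads per neuron ran from 923103 to 9097865 (median 3543519) in the Ntm and from 416007 to 7079292 (median 2851693) in the low-Ntm neurons, and genes above 0 had medians of 13916 and 14046. The sets shared 5 library plates, with 5 Ntm and 2 low-Ntm neurons in plate 2, 1 and 10 in plate 3, 6 and 10 in plate 4, 10 and 10 in plate 5, and 12 and 5 in plate 6. All 71 neurons had at least 10 TPM summed over the Y-linked genes examined, and 0 had 10 TPM of Xist.

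The main comparison asked how the Ntm neurons differ from the low-Ntm neurons of the same ganglia in genes that did not choose them. A gene was examined with a mean of at least 10 TPM in at least 1 set, which left 7786 genes. It was called higher or lower in the Ntm neurons when the mean of log2(TPM + 1) differed by at least 1 and the direction was the same in each of the 4 plates that held at least 2 neurons of both sets. This called 252 genes higher (3.24% of those examined) and 132 lower (1.7%), or 384 in either direction (4.93%). The median difference over all examined genes was 0.08, with quartiles of -0.10 and 0.27, so that the middle part of the examined genes lay close to 0. A difference of at least 2 was reached by 55 of the genes called higher and 39 of those called lower. With the deposited log2 values left as they are, without rescaling each neuron to the same total, the median difference moved to -0.32 and the calls to 116 higher and 264 lower. Differences on the log2(TPM + 1) scale understate the change of low genes.

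**Figure D2:**
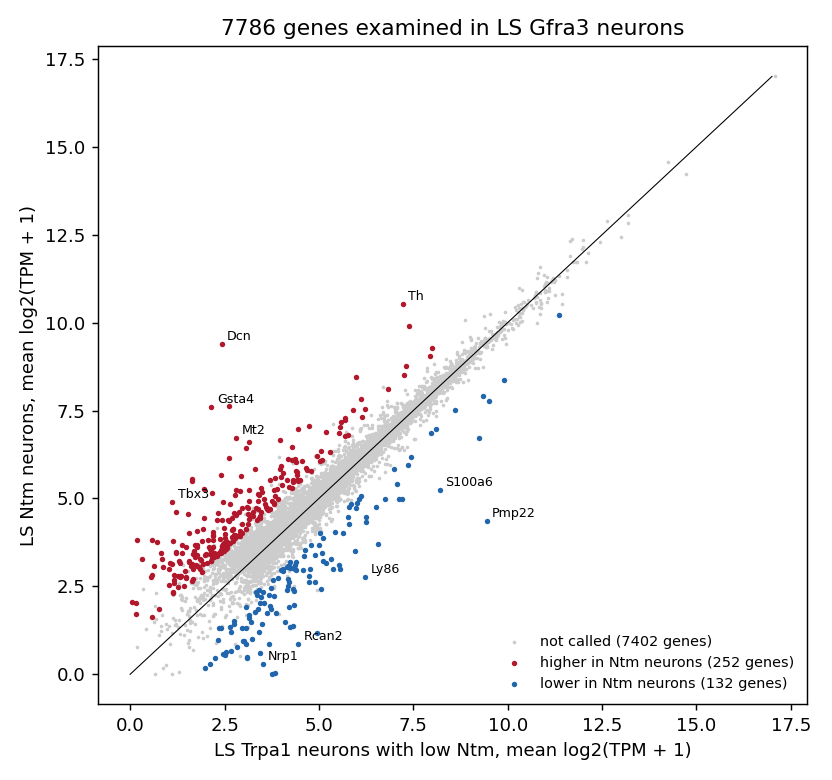
Mean log2(TPM + 1) of 7786 examined genes in the 37 low-Ntm neurons (x axis) and in the 34 Ntm neurons (y axis), with the line of equal values. The 252 genes called higher in the Ntm neurons lie above the line, led by Dcn, and the 132 called lower lie below it, led by Pmp22.

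The gene with the largest difference was Dcn on chromosome 10 (97479609 to 97518143), which encodes decorin, a small proteoglycan of the extracellular matrix. Its level ran from 90.7 to 1866 TPM in the Ntm neurons (median 753 TPM) and from 0 to 849 TPM in the low-Ntm neurons (median 0 TPM). The sets overlapped, since 7 low-Ntm neurons exceeded the lowest Ntm neuron, but 21 of 37 low-Ntm neurons had no read of Dcn and every Ntm neuron had at least 10 TPM. The mean log2(TPM + 1) was 9.40 ± 1.03 (SD over 34 neurons of 1 sample) against 2.43 ± 3.29 (SD over 37), a difference of 6.98, and it ran from 6.20 to 9.02 within the 4 plates. Dcn is also a marker of fibroblasts, and the other 5 fibroblast genes listed, Col1a1, Col1a2, Col3a1, Lum and Pdgfra, had a median of 0 in both sets.

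Gsta4, a glutathione transferase that detoxifies lipid aldehydes, was next, with a difference of 5.45 and a range within plates of 5.27 to 5.90. It ran from 85.4 to 472 TPM (median 215 TPM) in the Ntm neurons and from 0 to 211 TPM (median 1.46 TPM) in the low-Ntm neurons. At least 10 TPM was reached in all 34 Ntm neurons and in 10 of 37 low-Ntm neurons (27.0%, 13.8% to 44.1%). Mt2, a metallothionein, had a median of 123 against 4.46 TPM (difference 3.91). Selenop, a selenium carrier, had a median of 109 against 9.40 TPM (difference 3.46). Mt1, the neighbour of Mt2, was called as well, with medians of 424 and 87.6 TPM, and is shown here after its values were seen.

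Tyrosine hydroxylase (Th), the enzyme that begins catecholamine synthesis, was the most abundant of the 15 leading genes, with 360 to 3435 TPM (median 1583 TPM) in the Ntm neurons. The low-Ntm neurons ranged from 0 to 2080 TPM (median 236 TPM), and 32 of 37 of them had at least 10 TPM, so that the sets differed in level and in spread rather than in presence. The SD of log2(TPM + 1) was 0.61 in the Ntm and 2.94 in the low-Ntm neurons, and the difference of 3.33 ran from 1.50 to 6.89 within plates. Of the 15 genes of the catecholamine pathway, 7 could be examined and Th was the 1 called, beside 4.93% of all examined genes called. The next enzyme, Ddc, which makes dopamine, was at a median of 0 in both sets, with a highest value of 0.82 TPM, and the vesicular transporter Slc18a2 had medians of 4.25 and 4.66 TPM.

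Among the 15 leading genes were 2 transcription factors. The T-box factor Tbx3 had a median of 31.4 TPM in the Ntm and 0.41 TPM in the low-Ntm neurons, and reached 10 TPM in 32 of 34 against 3 of 37. Esr1, the oestrogen receptor alpha, reached 10 TPM in all 34 Ntm neurons (median 22.3, highest 65.6 TPM) and in 4 of 37 low-Ntm neurons (median 0.67, highest 28.9 TPM). Each gene overlapped between the sets, and each had a difference of at least 3 in every plate used (3.03 to 4.28 for Tbx3 and 3.07 to 4.04 for Esr1).

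The rest of the 15 leading genes differed by 3.25 to 4.99. They were Tmem54, Igfbp7, which binds insulin-like growth factors, the lipid droplet protein Cidea, the synaptic vesicle protein Sv2b, the glycosyltransferase Galnt18, Rarres1, the small GTPase regulator Arap3 and the Ras-related Rasd1. Sv2b had medians of 80.2 and 4.49 TPM, Igfbp7 of 54.0 and 1.67 TPM, and Cidea of 53.9 and 0 TPM. Arap3 was the lowest in level, with 13.3 against 0 TPM. Tmem54 overlaps Hpca on the opposite strand and both were called higher, so reads over the shared stretch cannot be told apart in a library without strand. Pcp4, shown after its values were seen, was among the most abundant called genes, with medians of 1578 and 463 TPM.

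Among genes lower in the Ntm neurons, Pmp22 on chromosome 11 (63128982 to 63159547), a membrane protein best known from peripheral myelin, had the largest difference. It ran from 0 to 1536 TPM (median 990 TPM) in the low-Ntm neurons and from 0 to 497 TPM (median 52.0 TPM) in the Ntm neurons. Only 1 low-Ntm neuron had no Pmp22, against 11 Ntm neurons, and the sets overlapped in range. The difference was -5.07 and ran from -7.49 to -3.85 within plates. Without the 6 Ntm and 3 low-Ntm neurons whose glial sum exceeded 4614 TPM it was -5.28, and for Dcn it was then 6.89.

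Galr1, a receptor for the peptide galanin, had no read in any of the 34 Ntm neurons, which allows a share of up to 8.82%. In the low-Ntm neurons it reached 203 TPM (median 24.7 TPM), with at least 10 TPM in 22 of 37 (59.5%, 42.1% to 75.2%). Nrp1, the neuropilin that acts as a co-receptor for class 3 semaphorins and VEGF, was at most 5.12 TPM in the Ntm neurons and had a median of 14.7 TPM, up to 98.7 TPM, in the low-Ntm neurons. Nrp1 passed 10 TPM in 0 of 34 Ntm neurons and in 20 of 37 low-Ntm neurons (54.1%, 36.9% to 70.5%). Pcp4l1 was as sharply split in its upper range: no Ntm neuron had more than 0.80 TPM, while low-Ntm neurons reached 2059 TPM with a median of 7.49 TPM. For these 3 genes the sets overlapped only at the bottom of the scale, where 9 low-Ntm neurons had no Galr1 and 6 had no Nrp1.

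The other leading genes lower in the Ntm neurons had differences from -3.75 to -2.62. Among them were Aprt, an enzyme of adenine salvage (median 0 against 41.0 TPM), the calcineurin regulator Rcan2 (0 against 40.4 TPM), the choline transporter Slc5a7 (0 against 23.3 TPM) and the secreted protease Htra1 (0 against 27.0 TPM). S100a6, a calcium-binding protein, had medians of 27.2 and 592 TPM but reached 1437 TPM in an Ntm neuron, and its difference of -2.95 ranged from -6.28 to -1.22 within plates. With only the Ntm neurons under 10 TPM of Trpa1 the difference of S100a6 was -1.67. Ly86 had medians of 7.91 and 78.0 TPM, and Vat1l 20.0 and 131 TPM. Pappa, Tspan8, Vwa7 and the potassium channel subunit Kcnmb1 completed the 15, with medians of at most 5.04 TPM in the Ntm neurons. Kcnmb1 overlaps Kcnip1 on the opposite strand, which had means of 0.84 and 3.29 TPM.

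**Figure D3:**
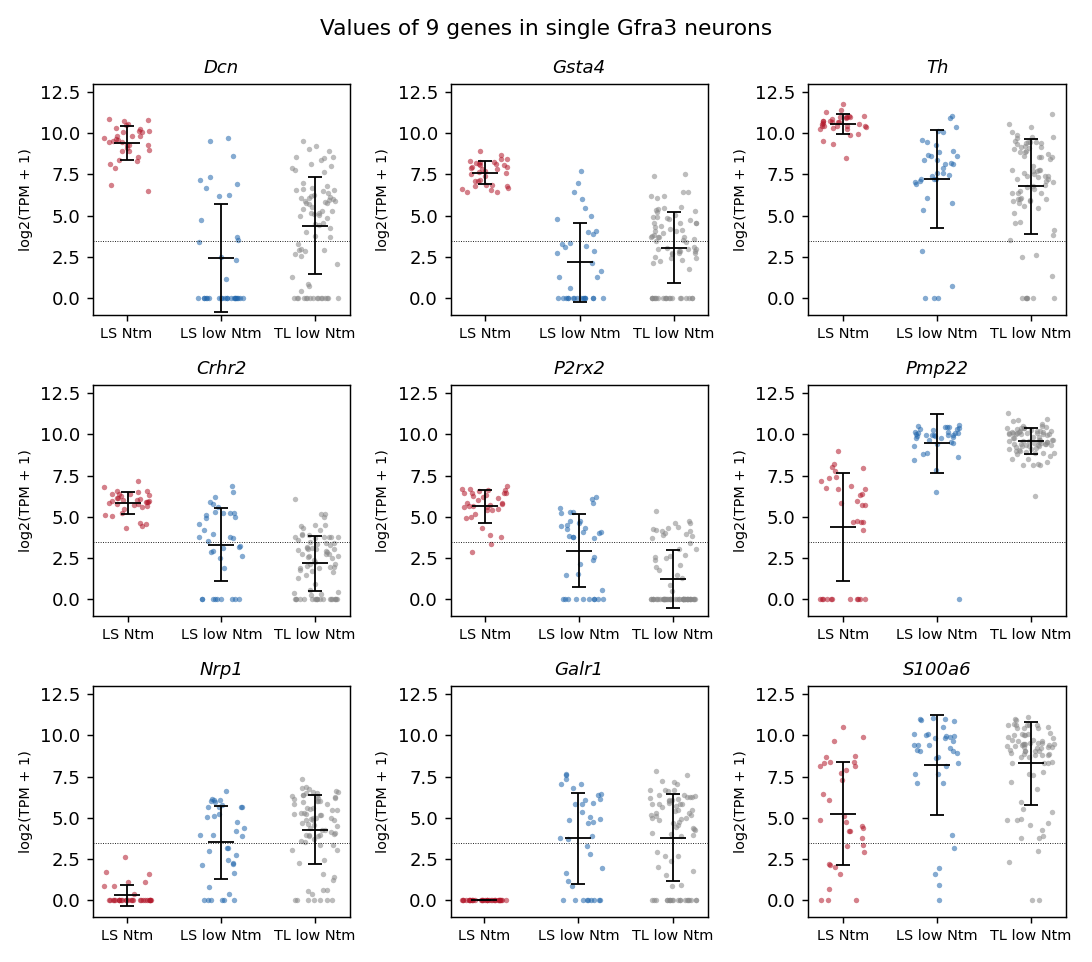
Log2(TPM + 1) of 9 genes in each of 34 LS Ntm neurons (red), 37 LS low-Ntm neurons (blue) and 79 TL low-Ntm neurons chosen by the same rule (grey), with the mean and SD over neurons (black) and a dotted line at 10 TPM. Dcn, Gsta4 and Th were tight and high in the Ntm neurons and spread in both other sets, Pmp22 was spread in the Ntm neurons, and Galr1 lay at 0 in all 34 of them.

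The direction of all of these leading genes was the same in each plate, as the rule for calling required, and the size varied between plates. Plate 2 held 2 low-Ntm neurons and gave several of the extreme values, such as 6.89 for Th and 6.85 for Mt2. Plate 5, with 10 neurons of each set, gave 6.20 for Dcn, 5.79 for Gsta4 and -4.11 for Pmp22.

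**Figure D4:**
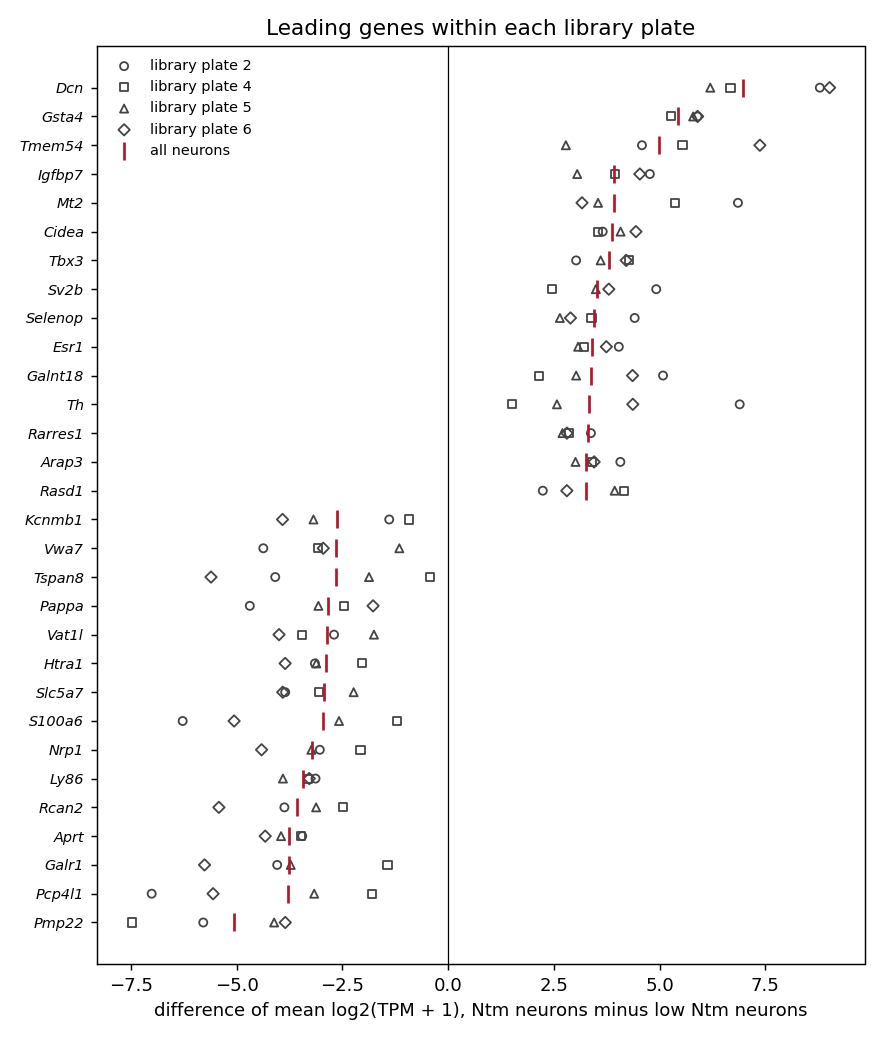
Difference of mean log2(TPM + 1), Ntm minus low-Ntm neurons, for the 15 leading genes of each direction within library plates 2, 4, 5 and 6 (open symbols) and over all 71 neurons (red bars). Every open symbol lies on the same side of 0 as its red bar, with Dcn from 6.20 to 9.02 and Pmp22 from -7.49 to -3.85.

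TL ganglia gave a reference from the other nerve. Of 85 TL neurons with Gfra3, 0 had 10 TPM of Ntm, which allows a share of up to 3.53%, and the highest value was 4.19 TPM. Those with Trpa1 numbered 79. Their values are set beside the LS sets without a test, as a segment is 1 sample. Of 3 genes lower in the Ntm neurons, the mean of Pmp22 was 879 TPM against 913 TPM in LS low-Ntm and 85.6 TPM in LS Ntm neurons, that of Galr1 was 39.7 against 44.6 and 0 TPM, and that of Nrp1 was 37.4 against 25.3 and 0.40 TPM. For Dcn the TL mean was 89.6 TPM against 73.2 and 825 TPM, and 51 of 79 TL neurons had at least 10 TPM. Crhr2 stepped down over the sets, with means of 62.2 TPM in LS Ntm, 22.4 TPM in LS low-Ntm and 7.42 TPM in TL neurons. Selenop did not follow that order, with 119, 25.3 and 95.4 TPM, and the TL neurons had a higher glial sum (median 3010 TPM) whose part in this was not tested.

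The sets were then read by gene lists. Each count of called genes in a list stands beside 4.93% of all examined genes called, and most lists hold few examined genes. Both carried the machinery of GDNF signalling: Ret had medians of 263 and 294 TPM and Gfra4 of 72.3 and 84.9 TPM, and 0 of the 2 examined genes of that list, Gfra3 apart, were called. Bdnf, a neurotrophin made by nociceptors and shown after its values were seen, was called lower with medians of 14.6 and 52.5 TPM.

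Of the IgLON family and partners, 2 of the 3 examined genes besides Ntm itself were called higher. Opcml, which lies beside Ntm on chromosome 9 (27790775 to 28925410), had a median of 23.9 against 6.35 TPM, with a difference of 1.72. Negr1 on chromosome 3 had a median of 20.7 against 2.99 TPM, with a difference of 2.47, and reached 10 TPM in 32 of 34 against 3 of 37 neurons. Lsamp, with 29.9 against 23.8 TPM, was not called.

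Of 9 neuropeptide genes examined, beside 4.93% of all examined genes called, Nmb, which encodes neuromedin B, was the 1 called, lower in the Ntm neurons (median 258 against 660 TPM, difference -1.44). Calca, which encodes CGRP, had 19628 and 27472 TPM, and Tac1, which encodes substance P, had 4489 and 4246 TPM. Neither was called, nor was Calcb, with 1472 and 2884 TPM and a difference of -0.93, just under the limit. Of the pathway around galanin, the peptide gene Gal was abundant in both sets, with medians of 5291 and 4852 TPM, while its receptor Galr1 was at 0 in 9 of 37 low-Ntm and in all 34 Ntm neurons.

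Channel lists held between 0 of 8 and 3 of 14 called genes, beside 4.93% of all examined genes. Of 6 TRP channels besides Trpa1, Trpm2 was higher in the Ntm neurons (median 25.1 against 9.28 TPM, difference 1.07, but 0.95 without plate 4 and 0.64 in the deposited log2 values, both under the limit of 1), and the capsaicin receptor Trpv1, with 2097 against 1251 TPM and a difference of 0.69, was not called. Of 8 voltage-gated sodium channel genes 0 were called: Scn10a, the nociceptor channel Nav1.8, had medians of 90.1 and 170 TPM (difference -0.75), Fgf13, a modulator of sodium channels, 766 and 900 TPM, and Scn9a 71.4 and 68.5 TPM. Potassium channels went in both directions, with Kcnc4 higher and Kcnb2 and Kcnv1 lower of 14 examined, and Kcnk10, a background potassium channel, was lower of 7 acid and mechanically gated channels examined. Of 11 calcium and HCN channel genes, the T-type channel Cacna1h (14.3 against 6.57 TPM) and Cacng5 (24.9 against 0.53 TPM) were higher.

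Receptors for purines and peptides held called genes in both directions. P2rx2, an ATP-gated channel subunit, had a median of 54.7 TPM (6.36 to 116) in the Ntm and 12.6 TPM (0 to 71.9) in the low-Ntm neurons, with a difference of 2.70 (0.72 to 4.84 within plates). Its partner subunit P2rx3 was not called, with 24.4 and 27.6 TPM, and the adenosine receptor Adora2a was higher (12.6 against 1.96 TPM). Of 16 inhibitory and peptide receptors examined, 3 were higher and 3 lower, beside 4.93% of all examined genes called. Crhr2, a receptor for urocortins, had 18.8 to 141 TPM (median 59.7 TPM) against 0 to 115 TPM (median 12.04 TPM), and reached 10 TPM in all 34 Ntm and in 20 of 37 low-Ntm neurons. Sstr4, a somatostatin receptor, had medians of 40.4 and 11.97 TPM, and the neuropeptide Y receptor Npy1r 276 and 117 TPM. Another neuropeptide Y receptor went the other way, with Npy2r at a median of 0 against 12.8 TPM, together with Galr1 and with Gpr35 (30.9 against 66.3 TPM). The opioid receptor Oprm1 was not called, with 40.8 and 49.5 TPM.

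Of 6 cholinergic receptor genes examined, the nicotinic subunits Chrna6 (median 66.4 against 196 TPM) and Chrnb3 (43.4 against 177 TPM), which lie beside each other on chromosome 8, were lower in the Ntm neurons. The choline transporter Slc5a7, named above, was lower too. Of 9 GABA-A and ionotropic glutamate receptor genes, Gabra3 (24.5 against 5.20 TPM) and the kainate receptor Grik1 (7.64 against 0 TPM) were higher. The serotonin receptor Htr5b was higher, with 50.3 against 20.0 TPM, of 4 serotonin receptors examined. These counts stand beside 4.93% of all examined genes called.

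Receptors for inflammatory mediators went in both directions. The prostacyclin receptor Ptgir was lower in the Ntm neurons (9.67 against 61.0 TPM, difference -2.45) and the prostaglandin E2 receptor Ptger3 higher (8.52 against 0.60 TPM, difference 1.65). Of the sphingosine 1-phosphate receptors, which share a ligand, S1pr1 was higher (41.2 against 11.6 TPM) and S1pr3 lower (9.96 against 28.4 TPM). Mrgprx1, an itch receptor, was lower as well. Of 14 cytokine receptors 0 were called, beside 4.93% of all examined genes, so a list this short can hold none. The 2 most abundant, Lifr and Ifngr2, had medians of 187 against 152 and 53.5 against 77.1 TPM. Nrp1 was the 1 called of 6 guidance receptors.

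Of 17 sensory neuron transcription factors examined, 3 were higher and 2 lower, beside 4.93% of all examined genes called. Zfp521 had a median of 26.3 against 1.00 TPM and the largest difference of the list, 3.02. Etv1 (17.3 against 6.36 TPM) and Dlx3 (13.2 against 5.24 TPM) were also higher, and Hmx1 (11.4 against 20.7 TPM) and Insm2 (5.55 against 10.5 TPM) lower, each by 1.09 to 1.39. The call of Hmx1 ended without plate 2 (-0.99), with all low-Ntm neurons (-0.90) and without 1 to 10 TPM of Ntm (-0.93), and that of Insm2 without plate 3 (-0.95), without plate 5 (-0.98) and without neurons of high glial sum (-0.85). Regulators common to DRG neurons, such as Isl1 and Pou4f1, were not called. Of 13 genes of the release machinery, Rims2, a scaffold of the presynaptic active zone, was higher (48.3 against 16.0 TPM) and Syt9, a calcium sensor, lower (26.2 against 67.7 TPM). Of the 5 filament genes Nefh, Nefm, Nefl, Prph and Ina 0 were called, nor was Ldhb, a lactate dehydrogenase on the same list, with peripherin (Prph) at medians of 4422 and 3940 TPM and Nefl at 731 and 972 TPM.

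**Figure D5:**
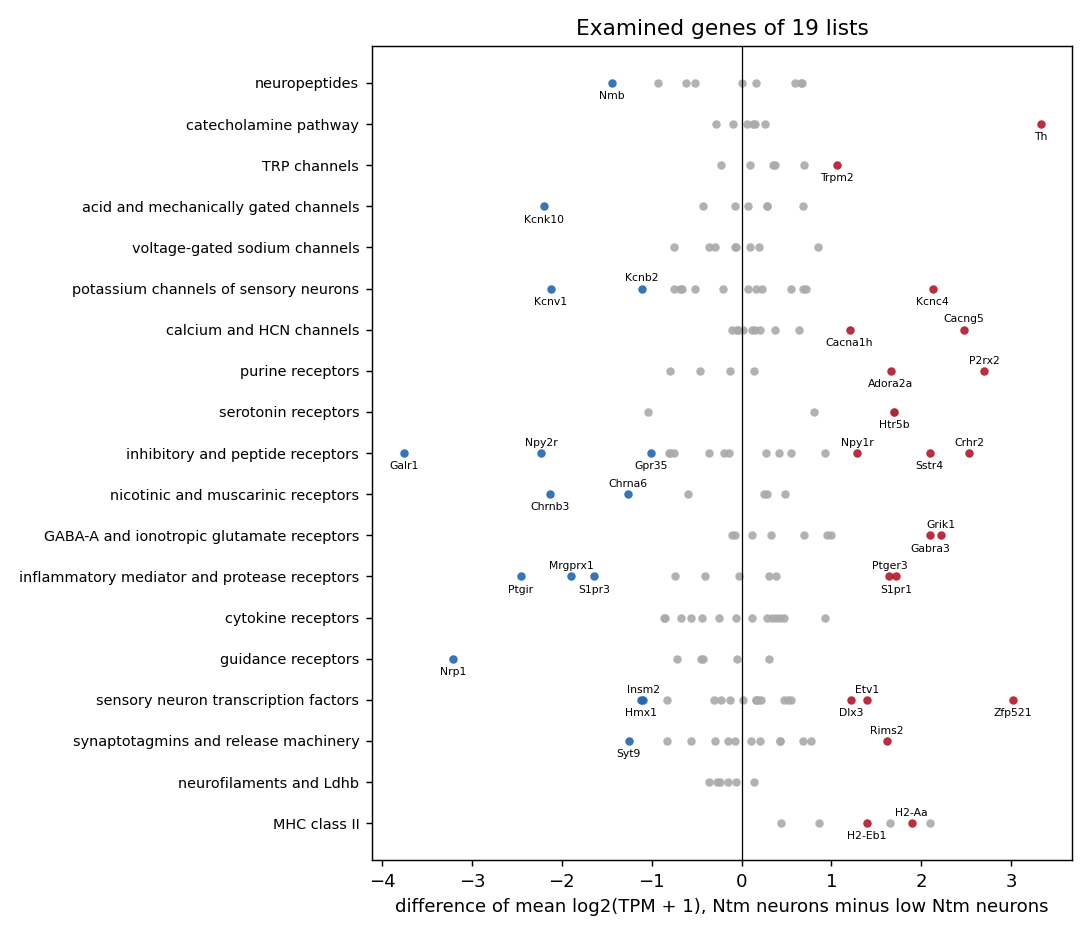
Difference of mean log2(TPM + 1), Ntm minus low-Ntm neurons (x axis), for examined genes of 19 lists, Ntm, Trpa1 and Gfra3 apart, in red where called higher, blue where called lower and grey where not called. Receptor lists hold called genes on both sides of 0, such as Crhr2 at 2.53 and Galr1 at -3.76. The sodium channel, cytokine receptor and neurofilament lists hold grey points alone, with 8, 14 and 6 genes examined. Of all examined genes 4.93% were called.

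Against the median of 0.08 over all examined genes, the lists of function with at least 3 genes examined that lay furthest away were the IgLON list (median 1.72), MHC class II (1.52), serotonin receptors (1.25) and GABA-A and ionotropic glutamate receptors (0.69) on the higher side, and the guidance receptors (-0.44) and the inflammatory mediator receptors (-0.40) on the lower side. The IgLON median rested on 3 genes. That of the serotonin receptors rested on 4 genes that disagreed. Htr5b (1.70) was called, while Htr3a (1.70), Htr2a (0.81) and Htr3b (-1.04) were not. The mean of Htr3a was 377 TPM in the Ntm and 387 TPM in the low-Ntm neurons. From the study's own marker list of each subtype, chosen there on these same neurons and so not independent of them, the 20 genes that stood first in it were taken, leaving out Ntm, Trpa1, Gfra3 and entries without a symbol. Among these, 16 of 20 pPEP markers were higher and 0 lower, and 0 of 16 examined mPEPb markers were higher and 6 lower. Further called pPEP markers were Rcn1, Tgfa, Gm2694, Tpm2, Plxdc2, Hpca and the adhesion protein Cntn4, with differences from 1.16 to 2.94, and the 4 not called were Trpv1, Syt10 (0.78), Smim3 (0.99) and Hoxd11 (0.995). Further called mPEPb markers were Stk32a, Rgs17 and Ppfibp2, from -1.60 to -1.43.

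Counted per neuron, 16 to 20 of the 20 pPEP markers (median 18) reached 10 TPM in the Ntm neurons and 5 to 20 (median 10) in the low-Ntm neurons. The mPEPb markers overlapped far more, with 8 to 15 (median 11) in the Ntm and 9 to 20 (median 15) in the low-Ntm neurons. Ntm neurons with Trpa1 of at least 10 TPM held a median of 19 pPEP markers and those without it 18, and their medians of Dcn were 628 and 982 TPM, of Th 1434 and 1618 TPM and of Pmp22 52.0 and 53.3 TPM. S100a6 differed more between them, with medians of 16.2 TPM in the 16 with Trpa1 and 223 TPM in the other 18. The 6 low-Ntm neurons with at least 100 TPM of Dcn held 13 to 20 pPEP markers (median 15), and the other 31 low-Ntm neurons 5 to 14 (median 9). Dcn is itself among the 20 pPEP markers, so the split by Dcn settled that marker in the 6 neurons beforehand.

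The counts were also taken with some neurons left out by their Dcn, Ntm or Trpa1, which is no independent check. Dcn and Ntm separate the sets, so leaving out low-Ntm neurons by either gene can by itself widen the differences. Without the 6 low-Ntm neurons with high Dcn, 295 genes were called higher and 144 lower, of which 248 and 129 were among those of the full comparison. With the 10 low-Ntm neurons at 1 to 10 TPM of Ntm left out, the counts were 357 and 154 over 3 plates, and with only the 18 Ntm neurons that had less than 10 TPM of Trpa1 they were 263 and 149. The settings on Dcn and on 1 to 10 TPM of Ntm were chosen after the data had been seen. With 3 plates a call also needed the same direction in fewer plates than in the full comparison. Calls of list genes that ended when 1 plate was left out were those of Trpm2, Kcnb2, Adora2a, Gpr35, Ptger3, Mrgprx1, Hmx1, Insm2, Tgfa and H2-Eb1. The difference of Th was 3.65, 3.93 and 3.36 under the 3 settings, and that of Nrp1 -3.44, -3.74 and -3.24.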

How the data were processed

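Colonic sensory neurons were sequenced 1 by 1 (Smart-seq2, 6 library plates). Per the labels, the authors used bcl2fastq 2.15.0.4, STAR 2.4.1 and featureCounts 1.4.4 with GRCm38.p3. The authors deposited 1 table of 45513 genes by 325 neurons, recorded here under the unit score, which holds log2(x + 1) values, where x is the reads of a gene divided by its length and scaled by a factor of the neuron. Bath controls and neurons without a column were not analysed here. Here x was rescaled to sum to 1000000 per neuron (TPM), and differences were taken on log2(TPM + 1), a pseudocount of 1. Whole reads were recovered from x with exonic lengths of GENCODE M21 (26057 genes, 65.0% of values within a relative tolerance of 1e-06) or with lengths found from the values (8712 genes). They gave depth and a comparison in CPM, and the step was tested on simulated data. Gene coordinates are those of GENCODE M21 on GRCm38.

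Neurons, genes and lists were chosen with earlier results of these data known. Cells are not replicates and no test was run. Of 32 lists with 556 genes, 554 genes were in the table. Named are Gfra3, Ntm and Trpa1, the 15 called genes with the largest difference in each direction (without mitochondrial, rRNA, pseudogene and gene model entries), every called gene of a list and, for a list with none, its 2 most abundant examined genes, apart from results that are not reported here. Further genes, such as Calca, Trpv1, Ddc and P2rx3, were named after their values had been seen. Exact Clopper-Pearson intervals and limits for a count of 0 (3 divided by n) cover the counting error over neurons only. They take neurons as independent, although the mouse behind each neuron is not known. Reads without molecular identifiers are not independent molecules either. Across 24 alternatives the pseudocount, filters, scaling, thresholds, neurons and plates were changed. Python 3.11.15, numpy 2.4.6, pandas 2.3.3 and scipy 1.17.1 were used.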

Additional observations from a re-analysis of the deposited data

How the results depend on the processing

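No paired analysis was possible because the mouse behind each neuron is not given and the replicate numbers only count neurons. Library plate served as a stratum and gave 287 genes higher and 141 lower with plates weighing alike. The main counts were 252 genes higher and 132 lower in the Ntm neurons. Leaving out each library plate in turn gave 253 to 301 higher and 121 to 171 lower. A pseudocount of 10 gave 73 and 52, a mean of at least 50 TPM 67 and 46, no filter on low values 200 lower, and the deposited log2 values 116 and 264, where the median of all examined genes was -0.32. An Ntm limit of 50 TPM left 3 Ntm neurons and 1 plate and gave 808 and 280, and leaving out 1 to 50 TPM of Ntm gave 1066 and 335. There Dlx3 reversed to -0.21 under the limit of 50 TPM, and Hmx1 to 0.25 and 0.051 under these settings. The other counts, including those in CPM of recovered reads (293 and 183), stayed within 1.5 times.

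Of the 92 named genes besides Gfra3, Ntm and Trpa1, calls were lost by 46 with a mean of at least 50 TPM, 32 with a pseudocount of 10 and 8 with log2 of the mean TPM. With an Ntm limit of 50 TPM 19 lost their call and 2 more reversed. With 1 to 50 TPM of Ntm left out 8 lost their call and 1 more reversed. All 92 kept direction and call with a pseudocount of 0.1, without a filter and in TPM without mitochondrial and rRNA genes, and 91 in CPM, where Mrgprx1 lost its call. With the deposited log2 values 12 lost it, Opcml, Trpm2, Cacna1h, Adora2a, Htr5b, Npy1r, Etv1, Dlx3, Fos, Tgfa, Gm2694 and Hpca, and Scn10a (-1.16) and Ifngr2 (-1.09) gained one. Single plates decided the calls of Kcnb2 (-0.97) and Hmx1 (-0.99) without plate 2, Gpr35 (-0.95) and Insm2 (-0.95) without plate 3, Trpm2 (0.95), Gpr35 (-0.95) and H2-Eb1 (0.93) without plate 4, and Insm2 (-0.98) and Tgfa (0.96) without plate 5. Mrgprx1 without plate 3 or 6, Ptger3 without plate 4 or 6 and Adora2a without plate 5 kept a difference of at least 1, but no longer reached a mean of 10 TPM. Without a minimum of genes 10 calls were lost, and without neurons of high glial sum that of Insm2 (-0.85). Of 24 shares at 10 TPM for 12 genes, 23 stayed within their interval when reads were thinned to 500000 per neuron, which left out 2 low-Ntm neurons, while 17 did at a threshold of 1 TPM and 14 at 50 TPM. The 12 genes included Ntm, Gfra3 and Trpa1, which chose the neurons. Some of the 24 shares were thus set by the rule and say nothing on stability of other genes.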

Other observations

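MHC class II genes, which present antigen on immune cells, were uneven between neurons. Of 6 examined, H2-Aa and H2-Eb1 were called higher in the Ntm neurons and 0 lower, beside 4.93% of all examined genes called. However, H2-Aa reached 10 TPM in 10 of 34 Ntm and 1 of 37 low-Ntm neurons and had a median of 0 in both. The sum over 7 genes had medians of 43.6 and 33.8 TPM, with highest values of 1474 and 363 TPM. The macrophage genes Lyz2, C1qa, C1qc, Ptprc, Tyrobp, Cx3cr1 and Fcer1g had a median of 0 in both sets, and the part of other cells was not tested.

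Of 9 immediate early genes examined, Fos was called higher, with a median of 425 TPM (5.19 to 1932) in the Ntm and 190 TPM (19.9 to 1069) in the low-Ntm neurons, and the TL neurons had a median of 509 TPM. Of 9 injury genes Ecel1 was called lower, with 10 TPM in 1 of 34 Ntm and 10 of 37 low-Ntm neurons. Both counts stand beside 4.93% of all examined genes called.

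Later Hox genes, a list added after the data had been seen, had 0 of 6 examined genes called, beside 4.93% of all examined genes. Their sum over 12 genes ran from 143 to 393 TPM (median 261 TPM) in the Ntm and from 63.3 to 312 TPM (median 165 TPM) in the low-Ntm neurons, against a median of 16.5 TPM in the TL neurons. Hoxd10 had medians of 131 and 68.2 TPM, with a difference of 0.88. Of the remaining lists, Avil was called lower among 10 DRG neuron genes and S100b among 7 glial genes, 0 of 1 macrophage and 0 of 1 endothelial genes were called, and 0 genes of neurofilament or non-peptidergic afferents passed 10 TPM in the mean. Of the called gene models without an established name 26 were higher and 5 lower, and 6 genes of the mitochondrial genome were higher, while the mitochondrial share of TPM had medians of 4.50% and 4.04%.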
